A study of Mus musculus with 24 samples.

Results

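Dusp1, Dusp2, Dusp4, Dusp5, Dusp6 and Dusp10 encode dual-specificity phosphatases that act on MAP kinases, and Rgs1, Rgs2 and Rgs16 encode regulators of G protein signalling. These 9 genes were taken by name from a table of 9420 genes in mouse Th1 effector cells, the interferon gamma secreting class of CD4+ T cells. The cells came from the DO11.10 strain, whose T cells carry a transgenic receptor for an ovalbumin peptide. They were restimulated with anti-CD3 at 1 µg/ml and anti-CD28 at 2.5 µg/ml, both soluble, on a plate coated with goat anti-hamster IgG, in place of antigen and costimulation. The question was how transcription, RNA level and translation move over the first 4 h. Newly transcribed RNA, pulled out by its 4-thiouridine label (4sU RNA), was sequenced beside total RNA and the fragments that ribosomes protect (RP).

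With 200 µM label for 1 h, 4sU RNA was sequenced at 0, 1 and 4 h (2 libraries each) and at 2 and 3 h (1 each). For total RNA there were 2 libraries at 0 h, 2 at 4 h, 1 at 1 h and 1 at 2 h. RP libraries covered 0, 1 and 4 h (2 each) and 0.5 and 2 h (1 each). Another 2 libraries of 4sU RNA, labelled with 500 µM for 0.5 h, were from 0 and 0.5 h. Where a time had 1 library, it belonged to replicate 1, except total RNA at 1 h, which belonged to replicate 2. Where a time had 2 libraries, the value of replicate 1 is given first.

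Dual-specificity phosphatases remove phosphate from threonine and tyrosine in the activation loop of MAP kinases (ERK, JNK and p38) and so end their signal. Many of their genes are switched on by the same kinases, which makes them feedback inhibitors downstream of the T cell receptor. Regulators of G protein signalling speed up GTP hydrolysis by G alpha subunits and shorten the signal of chemokine and other G protein coupled receptors, which guide T cell migration.

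Levels are FPKM (fragment counts divided by gene length and by the total of the library), so a level is a share of its library. Fewer cells with a transcript cannot be told apart from less RNA per cell. Changes are differences of log2(FPKM + 1) and come with their standard error (SE) from limma. A gene was called at a Benjamini-Hochberg adjusted p below 0.05 over all genes tested. Libraries of the same replicate number deviated together, so the p from a fit with the replicate number as a block is given beside each change described here whose call it altered. At times with 1 library the block also altered the estimate, and the change printed is the one without it unless named. There the p with the block belongs to another estimate. In total RNA the fit with the block left 1 residual degree of freedom. A small p from it rests mostly on a spread shared over genes and little on that of the gene itself. Unless another fit is named, a p comes from a fit of 1 kind of library alone with no block, called the separate fit below. A joint fit over 22 libraries of the 3 kinds, also with no block, is named where it altered a call. All 9 genes were above 0 in every library, from 0.75 FPKM (Rgs16, total RNA at 0 h) to 2753 FPKM (Rgs1, RP at 2 h). In libraries whose depth could be read from the values (8.9 to 26.22 M reads for the 8 RP libraries, and 4.88 to 14.86 M for 3 others), 13 (Rgs16) to 44718 (Rgs1) reads lay behind a value.

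All 9 listed Th1 and CD4 T cell markers were in the table, and Cd3e and Cd4 stood at 32.8 to 95.5 and at 45.2 to 127.5 FPKM over the 4sU and total RNA libraries. Their summed level had a median of 7163 FPKM (888 to 23484) in replicate 1 and 2683 FPKM (818 to 15632) in replicate 2, over the 8 groups with both. This sum mixes times and kinds of library and moves with Ifng, which ran from 25.0 to 7580 FPKM over the 4sU and total RNA libraries. Single markers went both ways. In total RNA at 0 h, Cd3e stood at 57.8 and 95.4 FPKM and Cd4 at 127.5 and 82.4. Markers of several other cell types were present, and their sums had higher medians in replicate 1. The summed level of 5 of 6 CD8 T cell markers had a median of 331 FPKM (98.0 to 1117) in replicate 1 and 51.8 FPKM (17.2 to 149.7) in replicate 2. For 5 of 7 dendritic cell markers the medians were 71.7 (33.8 to 401) and 24.8 (12.4 to 146), and for 4 of 6 B cell markers 11.9 (1.84 to 62.9) and 3.96 (2.04 to 17.0) FPKM. For 2 of 7 macrophage markers they were 5.10 (2.61 to 15.2) and 2.49 (1.30 to 6.68) FPKM, and none of 4 neutrophil markers was in the table. The medians of 4 Th2 markers (54.0 and 54.5 FPKM) and 2 regulatory T cell markers (4.30 and 4.95 FPKM; 4 of 4 and 2 of 2 in the table) lay close together. Dusp4 and Rgs1 also stood higher in replicate 1 at 0 h in all 3 kinds of library, and Dusp5, Dusp6 and Dusp10 stood higher in replicate 2; the part of other cells in these values was not tested.

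Of the 9 genes, 7 had a RefSeq promoter entry (GRCm38.p6, 250 bases before to 50 after the start). In Dusp1, Dusp2, Dusp5 and Dusp6, 4sU RNA with 1 h of label stood highest at 1 h. The 250 upstream bases are shown for 3 of these phosphatase genes, picked because they hold motifs marked below. Dusp6 is not shown, and of the motifs searched its window held only the NFAT core. Each of the 3 holds a different sequence motif of factors that respond to receptor signals. Capitals mark matches to the cAMP response element TGACGTCA or its shorter core TGACG (read CGTCA on the other strand), to the EGR motif GCGNGGGCG and to the CArG box of SRF. All were searched on both strands, and the core lies within the longer element. Dusp1 (chr17:26508473-26508722, minus strand), Dusp2 (chr2:127335909-127336158, plus strand) and Dusp5 (chr19:53528895-53529144, plus strand) read 5′ to 3′ as follows.
Dusp1: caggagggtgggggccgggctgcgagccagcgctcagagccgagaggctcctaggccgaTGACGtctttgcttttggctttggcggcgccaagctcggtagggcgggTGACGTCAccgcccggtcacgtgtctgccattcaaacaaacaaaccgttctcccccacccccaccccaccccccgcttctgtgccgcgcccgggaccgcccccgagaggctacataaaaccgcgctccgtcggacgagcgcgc
Dusp2: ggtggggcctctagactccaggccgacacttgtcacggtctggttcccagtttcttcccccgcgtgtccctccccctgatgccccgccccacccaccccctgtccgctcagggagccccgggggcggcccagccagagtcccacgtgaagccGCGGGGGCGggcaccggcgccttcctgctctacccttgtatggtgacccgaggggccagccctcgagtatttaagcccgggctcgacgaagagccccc
Dusp5: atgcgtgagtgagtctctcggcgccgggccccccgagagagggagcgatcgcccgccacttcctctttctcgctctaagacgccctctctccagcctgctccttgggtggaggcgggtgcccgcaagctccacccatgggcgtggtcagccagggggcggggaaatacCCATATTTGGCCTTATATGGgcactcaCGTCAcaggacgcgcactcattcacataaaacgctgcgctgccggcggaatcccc
In Dusp1 the full element lay 143 to 136 bases before the start, and 1.79% of 32851 promoters of that length held it. The EGR match of Dusp2 lay 98 to 90 bases before the start, and 5.55% of promoters held one; Rgs2 held another. Dusp5 had a pair of abutting CArG boxes 82 to 63 bases before the start, and 1.63% of promoters held such a box. The core TGACG was in the promoter windows of Dusp1, Dusp2, Dusp5 and Rgs2 (20.8% of all), and the NFAT core GGAAA in those of Dusp1, Dusp5 and Dusp6 (61.3% of all). No window of the 7 held TGANTCA (AP-1, 7.81% of all), the NF-kB motif (8.46%) or TATAAA (13.6%).

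The AU-rich nonamer TTATTTATT, a form of the element known from short-lived mRNAs, was found in the 3′ UTR of 3 of the 9 genes, against 8.29% of 9366 annotated 3′ UTRs and 8.32% of the 5238 that were as long as those of the 9 genes (581 to 3006 bases). The sites are shown with the nonamer in capitals and 10 bases on each side. They fall in Dusp1, whose 4sU RNA stood lower at 4 h than at 1 h, and in Rgs1 and Rgs16, whose 4sU RNA stood higher. The 4 h libraries of Rgs1 and Rgs16 lay below their single libraries at 2 and 3 h, and the part of the sites in these courses was not tested. The sites lie on GRCm38 at chr17:26506159-26506187 and chr17:26505870-26505898 (minus strand, Dusp1), chr1:144243182-144243210 (minus strand, Rgs1), and chr1:153745169-153745197 and chr1:153745330-153745358 (plus strand, Rgs16).
Dusp1 site 1: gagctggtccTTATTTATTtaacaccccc
Dusp1 site 2: gtttttacctTTATTTATTtttgtgtagg
Rgs1: taaatgtttaTTATTTATTacttgaagat
Rgs16 site 1: gctgctattgTTATTTATTgtggtttgtt
Rgs16 site 2: gtgttaatatTTATTTATTgttaacaaag
The shorter pentamer ATTTA, which overlaps the nonamer, occurred in all 9, from 1 copy in Dusp5 and Dusp6 to 10 in Rgs1. The median was 2.48 copies per kilobase of 3′ UTR for the 9 genes and 1.33 for all.

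Of the 9 genes, 8 rose in at least 1 kind of library when the replicate block was fitted, and 7 in the separate fits without it. The share of all genes that rose in at least 1 comparison was not counted. Single comparisons called up to 23.3% of all genes higher with the block and up to 14.4% without it. These can understate the share in at least 1 comparison, so the counts of 8 and 7 are a description only. Dusp10 was called in no comparison. With 1 h of label, the phosphatase genes Dusp1, Dusp2, Dusp5 and Dusp6 had their highest mean 4sU level at 1 h and Dusp4 at 2 h. Rgs1 and Rgs2 stood highest at 2 h and Rgs16 at 3 h. At 1 h, 1 of the 9 genes (Dusp1) was called higher in 4sU RNA, where 0.183% of 9278 genes tested were. With the replicate block 8 were called higher, where 5.21% of all genes were. The median change of the 9 genes at 1 h was 1.66, against -0.03 over all genes. In 8 of the 9, both 1 h libraries lay above both 0 h libraries, as they did in 21.8% of all genes.

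**Figure D1:**
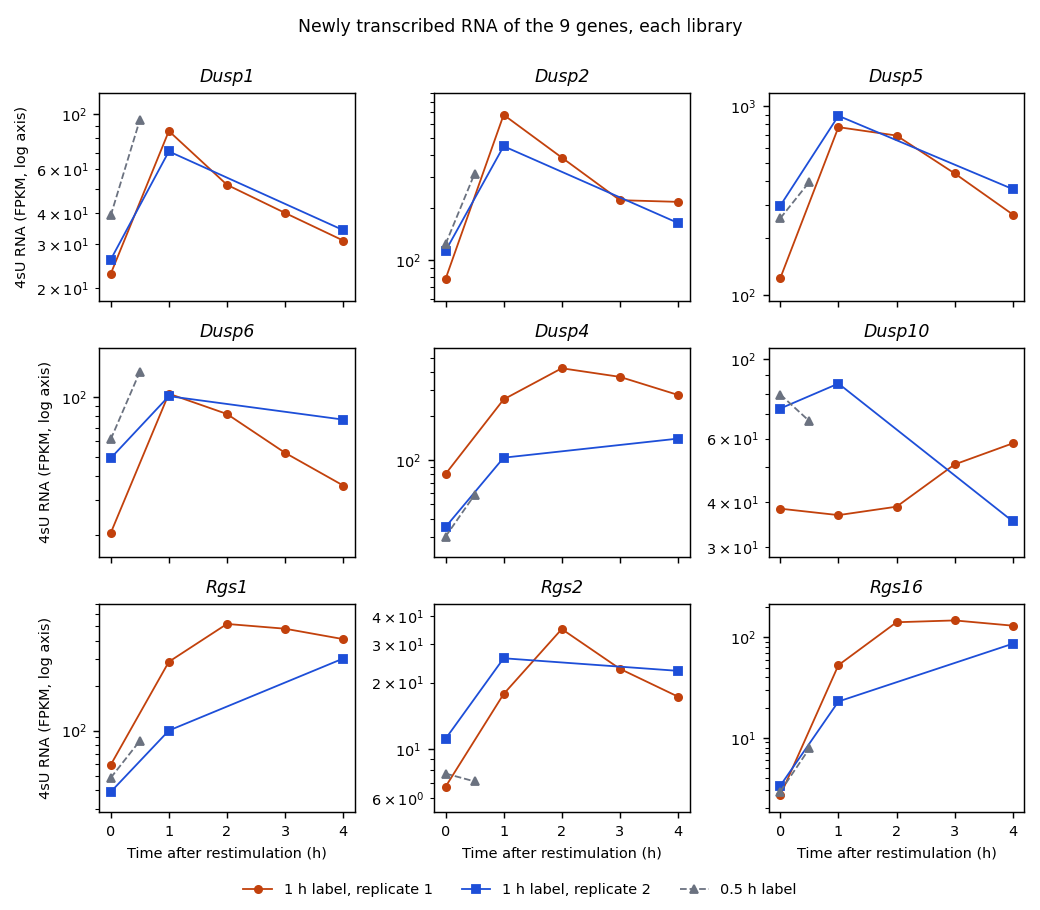
Level of each of the 9 genes in 4sU RNA (FPKM, log axis, with its own range in each panel) against time after restimulation in hours; circles are replicate 1, squares replicate 2 and triangles the separate pair with 0.5 h of label, with no error bars because each point is 1 library. With 1 h of label, Dusp1, Dusp2, Dusp5 and Dusp6 are highest at 1 h, Rgs1 and Rgs16 are still high at 4 h, and the Dusp10 lines cross. The triangles of Dusp1 and Dusp6 at 0.5 h lie above their points at 1 h. Their triangles at 0 h also lie above their 0 h points, so levels under the different labels cannot be compared directly.

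Dusp1, a mostly nuclear phosphatase of p38, JNK and ERK (ENSMUSG00000024190, GRCm38 chromosome 17, 26505590 to 26562128, minus strand), gave an early and brief rise. In 4sU RNA Dusp1 stood at 22.8 and 25.98 FPKM at 0 h, at 85.5 and 70.8 at 1 h, at 51.96 at 2 h, at 40.02 at 3 h and at 30.99 and 34.1 at 4 h. Every later library lay above both 0 h libraries, and the 4 h libraries lay below those of all other later times. The level rose at 1 h (limma, 1.64 ± 0.18 SE, adjusted p = 0.0469) and fell from 1 to 4 h (-1.23 ± 0.18 SE, adjusted p = 0.00854). At 2 h it was still higher in the separate fit (1.06 ± 0.22 SE, adjusted p = 0.0457) but not in the joint fit (adjusted p = 0.0792), whereas the changes of 0.70 at 3 h and 0.40 at 4 h did not pass (limma adjusted p = 0.072 and 0.131, 0.0269 and 0.0579 with the block); the one at 3 h passed with median-of-ratios scaling (adjusted p = 0.0427).

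In total RNA Dusp1 stood at 6.75 and 4.92 FPKM at 0 h, at 9.52 at 1 h, at 14.7 at 2 h and at 10.1 and 8.84 at 4 h. RP of Dusp1 stood at 26.8 and 20.25 FPKM at 0 h, at 63.1 at 0.5 h, at 121 and 53.4 at 1 h, at 100.0 at 2 h and at 48.05 and 39.1 at 4 h. Total RNA was highest in the single 2 h library and RP in the 1 h library of replicate 1, and the 4 h libraries of both kinds still lay above the 0 h libraries. None of these changes passed in the separate fits; the largest, at 2 h in RP, was 2.05 ± 0.49 SE, adjusted p = 0.0724, 0.0113 with the replicate block and 0.00519 in the joint fit (limma). In total RNA the changes were 1.21 at 2 h and 0.63 at 4 h (limma adjusted p = 0.151 and 0.123, 0.00725 and 0.0161 with the block). The call at 1 h in 4sU RNA was kept in 0 of 4 fits that left out 1 library, and the fall from 1 to 4 h in 4 of 4. The gene model of Dusp1 overlaps Ergic1 on the other strand, and the sources used here do not give the strand setting of the counting.

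Dusp2, a nuclear phosphatase of ERK and p38 known mainly from lymphocytes (ENSMUSG00000027368, chromosome 2, 127336159 to 127338376, plus strand), had the largest RP change of the phosphatase genes at 1 h. In 4sU RNA Dusp2 stood at 78.1 and 113 FPKM at 0 h, at 676 and 447 at 1 h, at 385.5 at 2 h, at 220.3 at 3 h and at 215 and 163 at 4 h. All 6 later libraries were above both 0 h libraries, and the 1 h libraries were above all the others. The change at 1 h did not pass in the separate fit (limma, 2.54 ± 0.35 SE, adjusted p = 0.0921, 0.00433 with the replicate block and 0.0024 in the joint fit); the level was higher at 2 h (2.02 ± 0.43 SE, adjusted p = 0.0457) and fell from 1 to 4 h (-1.55 ± 0.35 SE, adjusted p = 0.0252). At 4 h a difference of 0.99 from 0 h remained, which did not pass in the separate fit (limma adjusted p = 0.0717, 0.0189 with the block and 0.0273 in the joint fit).

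In total RNA Dusp2 stood at 25.55 and 22.9 FPKM at 0 h, at 67.8 at 1 h, at 127 at 2 h and at 71.4 and 44.9 at 4 h. RP of Dusp2 stood at 80.1 and 96.8 FPKM at 0 h, at 396 at 0.5 h, at 733 and 469.8 at 1 h, at 607 at 2 h and at 325 and 306 at 4 h. No later library of either kind overlapped the 0 h libraries. Dusp2 was the only one of the 9 genes called at 1 h in RP (limma, 2.72 ± 0.27 SE, adjusted p = 0.0477), where 0.14% of 9312 genes were called higher. It was also higher at 2 h (2.77) and 4 h (1.83, adjusted p = 0.00912). With the block, 7 of the 9 genes were called at 1 h in RP, where 1.42% of genes were. Total RNA was higher at 2 h (2.34 ± 0.35 SE, adjusted p = 0.0425) and 4 h (limma, 1.19 ± 0.29 SE, adjusted p = 0.0399). The RP call at 1 h was kept in 1 of 4 fits that left out 1 library, and was lost with a pseudocount of 0.1 FPKM or with median-of-ratios scaling, by which the adjusted p went to 0.0536 and 0.0572.

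Dusp5, a nuclear phosphatase that acts on ERK (ENSMUSG00000034765, chromosome 19, 53529109 to 53542431, plus strand), had the highest 4sU level of the 9 genes at 0 and 1 h. In 4sU RNA Dusp5 stood at 123 and 297 FPKM at 0 h, at 775 and 889 at 1 h, at 699 at 2 h, at 441 at 3 h and at 267 and 364 at 4 h. The 1 h libraries were above both 0 h libraries, whereas at 4 h replicate 1 lay below the 0 h library of replicate 2, so the groups overlapped. No 4sU change passed in the separate fit. It was 2.11 ± 0.49 SE, adjusted p = 0.207, 0.00978 with the replicate block and 0.0196 in the joint fit (limma) at 1 h, and 0.70 ± 0.49 SE, adjusted p = 0.303 (limma) at 4 h. The changes of 1.86 at 2 h and -1.41 from 1 to 4 h (limma adjusted p = 0.102 and 0.0792) passed in the joint fit (0.0165 and 0.0111). Both comparisons passed with the block (limma adjusted p = 0.00663 and 0.006), which gives another estimate at 2 h. Against the 0 h library of replicate 1, the difference at 2 h was 2.50. At 3 h the change passed with the block (limma adjusted p = 0.191, 0.0172 with the block).

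In total RNA Dusp5 stood at 34.5 and 49.9 FPKM at 0 h, at 54.04 at 1 h, at 231 at 2 h and at 81.2 and 92.2 at 4 h. The 2 h library was the highest, and the 1 h library of replicate 2 lay close to the 0 h library of the same replicate. RP of Dusp5 stood at 51.9 and 71.7 FPKM at 0 h, at 109 at 0.5 h, at 210.4 and 226 at 1 h, at 338 at 2 h and at 129.7 and 138 at 4 h. These RP groups did not overlap. Dusp5 was higher in total RNA at 2 h (2.45 ± 0.33 SE, adjusted p = 0.0307) and 4 h (1.04 ± 0.27 SE, adjusted p = 0.0497), and in RP at 2 h (2.45) and 4 h (limma, 1.12 ± 0.22 SE, adjusted p = 0.0177). The total RNA call at 4 h was lost with a pseudocount of 0.1 FPKM, with no filter on low values and in the joint fit (adjusted p = 0.0508, 0.0506 and 0.0553).

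Dusp6, a cytoplasmic phosphatase that acts on ERK (ENSMUSG00000019960, chromosome 10, 99263231 to 99267489, plus strand), followed a course like that of Dusp1, with more spread between replicates. In 4sU RNA Dusp6 stood at 20.5 and 49.03 FPKM at 0 h, at 104 and 101 at 1 h, at 82.15 at 2 h, at 52.2 at 3 h and at 35.6 and 76.9 at 4 h. The 1 h libraries were nearly equal. At 0 and 4 h replicate 2 stood above replicate 1, and the ranges of these times overlapped. The 1 h change did not pass in the separate fit (limma, 1.66 ± 0.49 SE, adjusted p = 0.259, 0.0171 with the replicate block), and neither did the change from 1 to 4 h (-0.96 ± 0.49 SE, adjusted p = 0.191, 0.0236 with the replicate block). The changes of 1.34 at 2 h and 0.70 at 3 h did not pass in the separate fit (limma adjusted p = 0.188 and 0.426). With the block, which gives another estimate, both times passed (limma adjusted p = 0.0123 and 0.0478). Against the 0 h library of replicate 1, the differences were 1.95 and 1.31.

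In total RNA Dusp6 stood at 6.36 and 13.5 FPKM at 0 h, at 25.04 at 1 h, at 35.5 at 2 h and at 18.15 and 24.8 at 4 h. RP of Dusp6 stood at 26.3 and 44.02 FPKM at 0 h, at 52.6 at 0.5 h, at 112 and 89.7 at 1 h, at 142 at 2 h and at 55.3 and 106 at 4 h. The single 2 h library of replicate 1 was the highest in both, and at 4 h both libraries of each kind stood above both 0 h libraries. Dusp6 was called in no comparison of the separate fits; at 4 h the change was 1.10 ± 0.36 SE, adjusted p = 0.085, 2.22e-05 with the replicate block in total RNA and 1.14 ± 0.39 SE, adjusted p = 0.0792, 0.0178 with the replicate block in RP (limma). The total RNA change passed without 0 h replicate 2 (adjusted p = 0.0384). The 2 h change in RP was 2.03 ± 0.47 SE, adjusted p = 0.0694, 0.0105 with the replicate block and 0.0443 in the joint fit (limma).

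Dusp4, a nuclear phosphatase of ERK, JNK and p38 (ENSMUSG00000031530, chromosome 8, 34807297 to 34819894, plus strand), followed a later course than the other phosphatase genes that moved. In 4sU RNA Dusp4 stood at 80.5 and 35.03 FPKM at 0 h, at 259.8 and 104 at 1 h, at 423 at 2 h, at 370.0 at 3 h and at 279 and 140.3 at 4 h. Replicate 1 stood above replicate 2 at 0, 1 and 4 h, and within each replicate every later library was above its own 0 h library. Against the 0 h library of replicate 1, the differences at 2 and 3 h were 2.38 and 2.19 on the log2 scale. The level was called higher at 3 h (limma, 2.78 ± 0.75 SE, adjusted p = 0.0482), in the single library of replicate 1, and this call was kept in 0 of 2 fits that left out 1 library and lost in the joint fit (adjusted p = 0.0623). At 1, 2 and 4 h the change did not pass in the separate fit (1.61 ± 0.61 SE, adjusted p = 0.341, 0.00415 with the replicate block, then 2.97 ± 0.75 SE, adjusted p = 0.0618, 0.000937 with the replicate block, and 1.88 ± 0.61 SE, adjusted p = 0.0584, 0.000127 with the replicate block; limma).

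In total RNA Dusp4 stood at 29.35 and 11.3 FPKM at 0 h, at 20.5 at 1 h, at 187 at 2 h and at 130.2 and 44.9 at 4 h. RP of Dusp4 stood at 90.6 and 25.5 FPKM at 0 h, at 159 at 0.5 h, at 189 and 64.9 at 1 h, at 633 at 2 h and at 391 and 149 at 4 h. At 1 h the RP library of replicate 2 lay below the 0 h library of replicate 1, so the groups overlapped there, and at 4 h they did not. Dusp4 was called in neither series in the separate fits; the 4 h change was 2.00 ± 0.58 SE, adjusted p = 0.0655, 4.35e-13 with the replicate block in total RNA and 2.30 ± 0.81 SE, adjusted p = 0.0884, 0.000261 with the replicate block in RP (limma). The total RNA change at 4 h passed with median-of-ratios scaling (adjusted p = 0.0447), and the RP change of 3.68 at 2 h in the joint fit (limma adjusted p = 0.0914, 0.00149 with the block and 0.0329 in the joint fit). Between 1 and 4 h RP changed by 1.11 ± 0.81 SE, adjusted p = 0.391, 0.00369 with the replicate block (limma), whereas the RP changes of Dusp1, Dusp2 and Dusp5 over that time were -0.88, -0.89 and -0.70 (adjusted p = 0.193, 0.0799 and 0.0831, 0.0255, 0.0264 and 0.0186 with the block).

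Dusp10, a phosphatase of p38 and JNK (ENSMUSG00000039384, chromosome 1, 184013302 to 184075636, plus strand), did not pass in any comparison, with or without the block. In 4sU RNA Dusp10 stood at 38.3 and 72.7 FPKM at 0 h, at 36.7 and 85.35 at 1 h, at 38.8 at 2 h, at 50.8 at 3 h and at 58.2 and 35.3 at 4 h. In total RNA it stood at 11.9 and 16.6 FPKM at 0 h, at 17.4 at 1 h, at 12.3 at 2 h and at 22.2 and 10.8 at 4 h, and in RP at 26.4 and 30.7 FPKM at 0 h, at 14.6 at 0.5 h, at 19.6 and 31.5 at 1 h, at 28.8 at 2 h and at 34.5 and 20.6 at 4 h. At 4 h replicate 1 was above its 0 h library and replicate 2 below its own in each kind of library, so the means hid opposite directions. The 4 h change was -0.22 ± 0.50 SE, adjusted p = 0.764 in 4sU RNA, 0.13 ± 0.36 SE, adjusted p = 0.842 in total RNA and -0.09 ± 0.33 SE, adjusted p = 0.86 in RP (limma).

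**Figure D2:**
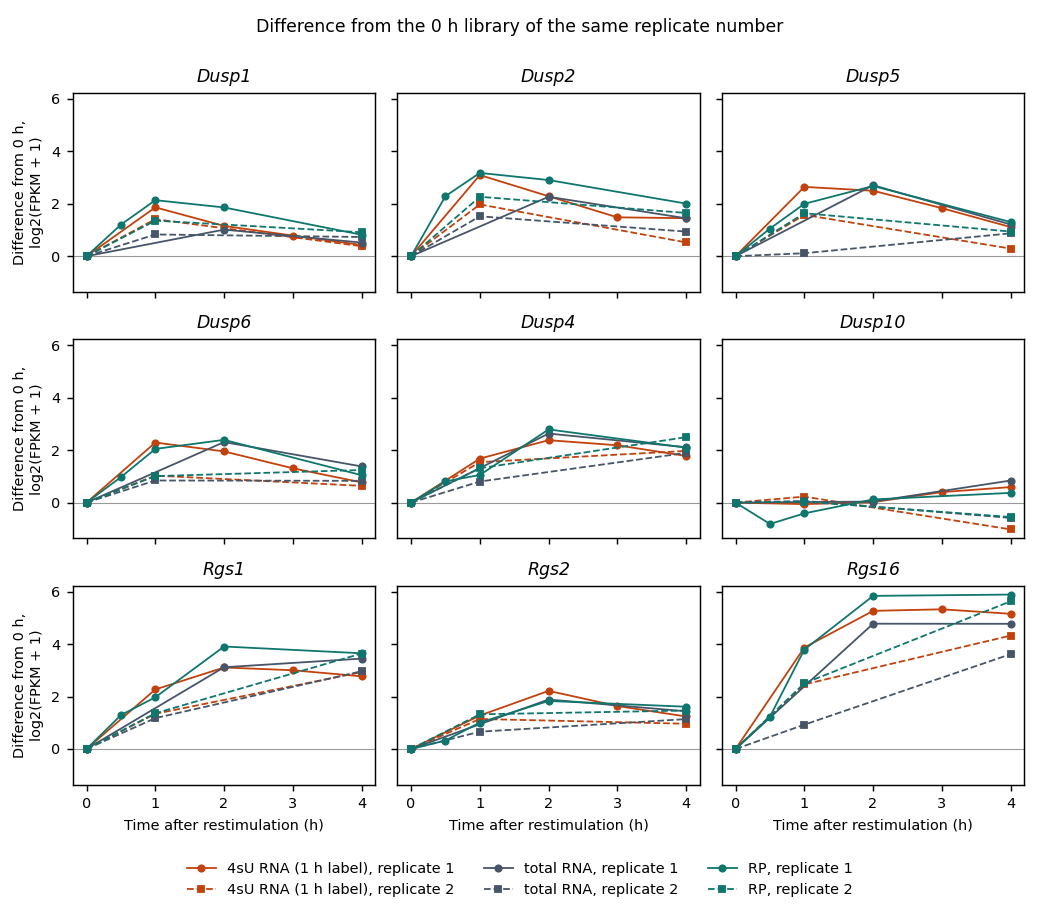
Difference of each library from the 0 h library of the same replicate number, on the scale of log2(FPKM + 1), against time after restimulation in hours; solid lines with circles are replicate 1 and dashed lines with squares replicate 2, each point being 1 library of 4sU RNA, total RNA or RP. The Rgs16 and Rgs1 lines climb highest and stay up at 4 h, the Dusp1, Dusp2, Dusp5 and Dusp6 lines of replicate 1 come down from a peak at 1 or 2 h, and the Dusp10 lines end on both sides of 0.

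Rgs16, a regulator of G alpha i and G alpha q signals (ENSMUSG00000026475, chromosome 1, 153740349 to 153745468, plus strand), had the largest change of the 9 genes. In 4sU RNA Rgs16 stood at 2.68 and 3.35 FPKM at 0 h, at 52.8 and 23 at 1 h, at 141 at 2 h, at 147 at 3 h and at 130.4 and 86.25 at 4 h. All later libraries stood above both 0 h libraries, and the 4 h libraries lay above the 1 h libraries. The change at 1 h did not pass in the separate fit (limma, 3.17 ± 0.41 SE, adjusted p = 0.0771, 0.00165 with the replicate block and 0.0196 in the joint fit), and passed there without 1 h replicate 2 (adjusted p = 0.0249). The level was higher at 2 h (5.15), at 3 h (5.21) and at 4 h (limma, 4.74 ± 0.41 SE, adjusted p = 0.0022), and rose from 1 to 4 h (1.57 ± 0.41 SE, adjusted p = 0.0361).

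In total RNA Rgs16 stood at 0.750 and 1.14 FPKM at 0 h, at 3.07 at 1 h, at 47.1 at 2 h and at 46.9 and 25.3 at 4 h. At 1 h, in replicate 2 alone, it stood well below the 2 h library, in replicate 1 alone. RP of Rgs16 stood at 5.38 and 3.72 FPKM at 0 h, at 14.01 at 0.5 h, at 87.35 and 25.8 at 1 h, at 365 at 2 h and at 378 and 234 at 4 h. Rgs16 was higher at 4 h in total RNA (limma, 4.20 ± 0.32 SE, adjusted p = 0.00318) and in RP (limma, 5.76 ± 0.57 SE, adjusted p = 0.00494), and rose from 1 to 4 h in RP (2.61 ± 0.57 SE, adjusted p = 0.0379). The calls at 4 h against 0 h were kept in every fit that left out 1 library, in all 3 kinds of library. The calls from 1 to 4 h were not kept in all such fits, where the rise ran from 1.75 to 3.47 in RP and from 0.99 to 2.16 in 4sU RNA. At 0 h the total RNA value lay near the pseudocount of 1, which understates the fold change. The antisense gene Gm28513 overlaps Rgs16, and their reads could not be told apart here.

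Rgs1 (ENSMUSG00000026358, chromosome 1, 144242296 to 144249242, minus strand) dampens chemokine receptor signals in lymphocytes. Its mean RP level was the highest of the 9 genes at 0, 0.5, 2 and 4 h, and at 1 h that of Dusp2 was higher. In 4sU RNA Rgs1 stood at 59.03 and 38.9 FPKM at 0 h, at 289 and 100.1 at 1 h, at 517 at 2 h, at 481 at 3 h and at 409 and 304 at 4 h. Replicate 1 was higher at 0, 1 and 4 h, and all later libraries were above both 0 h libraries. The 1 h change did not pass in the separate fit (limma, 1.81 ± 0.53 SE, adjusted p = 0.255, 0.0125 with the replicate block), and the level was higher at 2 h (3.40), 3 h (3.30) and 4 h (limma, 2.85 ± 0.53 SE, adjusted p = 0.011).

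In total RNA Rgs1 stood at 19.3 and 13.4 FPKM at 0 h, at 31.6 at 1 h, at 175 at 2 h and at 221 and 112 at 4 h. RP of Rgs1 stood at 182 and 101 FPKM at 0 h, at 448 at 0.5 h, at 718 and 262 at 1 h, at 2753 at 2 h and at 2302 and 1273 at 4 h. The 2 and 4 h libraries stood far above the rest in both. Rgs1 was higher at 4 h in total RNA (limma, 3.21 ± 0.37 SE, adjusted p = 0.00677) and RP (limma, 3.65 ± 0.58 SE, adjusted p = 0.011). From 1 to 4 h the RP change of 1.98 did not pass in the separate fit (limma adjusted p = 0.0745, 0.00153 with the block and 0.0318 in the joint fit). The total RNA call at 4 h was kept in 4 of 4 fits that left out 1 library, the RP call in 3 of 4 and the 4sU call in 2 of 4.

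Rgs2, which acts mainly on G alpha q (ENSMUSG00000026360, chromosome 1, 143999338 to 144004161, minus strand), lies near Rgs1 with Rgs13 between them, but stood at much lower levels. In 4sU RNA Rgs2 stood at 6.74 and 11.1 FPKM at 0 h, at 17.8 and 25.8 at 1 h, at 35 at 2 h, at 23.1 at 3 h and at 17.3 and 22.6 at 4 h. Every later library was above both 0 h libraries, and the 1 and 4 h ranges overlapped. The 1 h change did not pass in the separate fit (limma, 1.21 ± 0.30 SE, adjusted p = 0.219, 0.00433 with the replicate block and 0.0391 in the joint fit). Neither did the change of 1.32 at 3 h (adjusted p = 0.0507, 0.00078 with the block, 0.00855 in the joint fit and 0.0349 with median-of-ratios scaling). The level was higher at 2 h (1.89) and 4 h (limma, 1.10 ± 0.30 SE, adjusted p = 0.0335).

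In total RNA Rgs2 stood at 2.26 and 2.59 FPKM at 0 h, at 4.67 at 1 h, at 11.1 at 2 h and at 7.83 and 6.91 at 4 h. RP of Rgs2 stood at 10.9 and 11.4 FPKM at 0 h, at 13.9 at 0.5 h, at 22.99 and 30 at 1 h, at 41.4 at 2 h and at 35.4 and 33.2 at 4 h. Neither series overlapped its 0 h libraries at any later time. Rgs2 was higher at 4 h in total RNA (limma, 1.29 ± 0.21 SE, adjusted p = 0.0162) and in RP (limma, 1.54 ± 0.19 SE, adjusted p = 0.00646), the RP call being kept in 4 of 4 fits that left out 1 library and the total RNA call in 1 of 4.

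The RGS genes made up 3 of the 5 calls at 2 h in 4sU RNA and all 3 calls at 4 h, and Dusp2 and Dusp5 joined them in total RNA and RP. In 4sU RNA, 5 of the 9 genes were called higher at 2 h (3.87% of all genes tested), 3 at 3 h (9.41%) and 3 at 4 h (14.4%). With the block these counts were 8, 8 and 5 (13.3%, 17.8% and 23.3% of all genes). From 1 to 4 h, Rgs16 was called higher (11.9%) and Dusp1 and Dusp2 lower (14.7%), and with the block 2 genes were higher (22%) and 4 lower (32.2%).

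Total RNA gave 5 genes higher at 2 h (0.958% of all genes) and 5 at 4 h (6.47%), and 8 and 8 with the block (5.33% and 16.6%). RP gave the same 5 genes, Dusp2, Dusp5, Rgs1, Rgs2 and Rgs16, at 2 h (2.96%) and at 4 h (12.1%), and 8 and 8 with the block (9.53% and 21.3%). From 1 to 4 h RP gave Rgs16 higher (7.65%) and none of the 9 lower (6.42%), and with the block 3 higher (17.5%) and 3 lower (19.3%). Total RNA at 1 h called none of the 9 with limma, and no gene higher at all (0.0%), although 1197 genes had an unadjusted p below 0.05. With the block 5 of the 9 were called higher there (1.43%). RP at 0.5 h called none either (0.0%, with 743 genes at an unadjusted p below 0.05), nor any of the 9 with the block (0.0322%).

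The median 4 h change of the 9 genes was 0.99 in 4sU RNA, 1.19 in total RNA and 1.54 in RP, against -0.16, -0.10 and -0.10 over all genes. Both 4 h libraries lay above both 0 h libraries in 6 of the 9 genes in 4sU RNA (28.7% of all genes), in 8 in total RNA (25.3%) and in 8 in RP (29.0%), and both 1 h RP libraries in 7 (17.2%). Whether replicates are separate animals, cultures or only preparations is not in the labels, and the p-values cover no more than the spread between these libraries. A single library on 1 side was taken to vary as the replicated groups do.

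**Figure D3:**
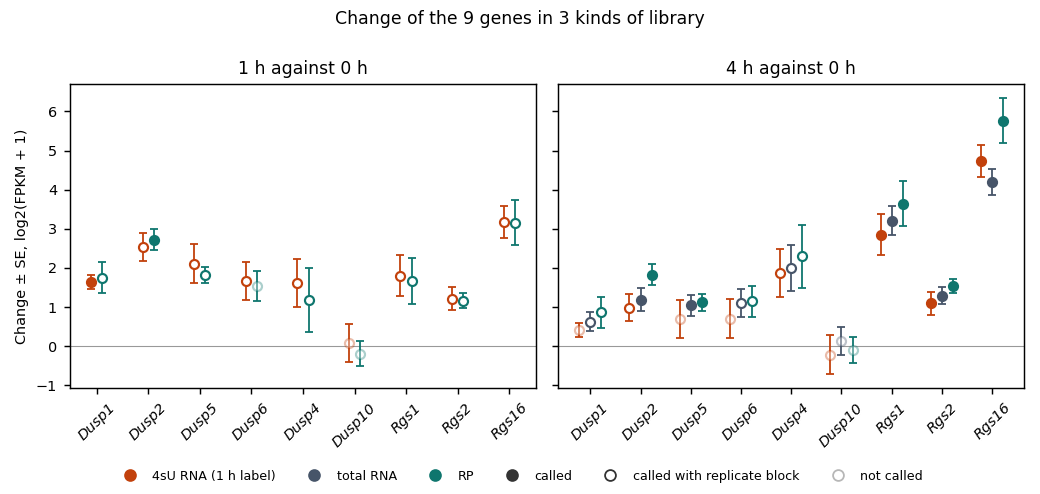
Change at 1 h (4sU RNA and RP) and at 4 h (4sU RNA, total RNA and RP) against 0 h for the 9 genes, on the scale of log2(FPKM + 1), with points for the fitted change and bars for its SE. Filled points passed the adjusted p threshold in the separate fit, dark open points did not pass there but passed with the replicate block and pale open points did not pass; at 4 h the filled points of Rgs16 lie highest, and all Dusp10 bars cross or touch 0.

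In the 4sU libraries with 0.5 h of label, 4 of the 9 genes already stood more than 2-fold higher at 0.5 h than at 0 h, where 0.694% of 9076 genes did. Dusp1 stood at 39.1 FPKM at 0 h and at 94.6 FPKM at 0.5 h, and Dusp2 at 123 FPKM at 0 h and at 312 FPKM at 0.5 h. Dusp6 stood at 61.1 FPKM at 0 h and at 134 FPKM at 0.5 h. Rgs16 stood at 2.93 FPKM at 0 h and at 7.85 FPKM at 0.5 h. These differences were 1.25, 1.33, 1.12 and 1.17 on the log2 scale, and those of Dusp4, Rgs1 and Dusp5 were 0.92, 0.81 and 0.64. Rgs2 stood at 7.74 FPKM at 0 h and at 7.13 FPKM at 0.5 h, and Dusp10 at 79.6 FPKM at 0 h and at 67.1 FPKM at 0.5 h, a difference of -0.10 and -0.24. There was 1 library at each time, so no test was made.

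Whether a gene changed by different amounts in different kinds of library was tested by the interaction term of limma in 4 comparisons. None of the 9 genes passed in any of them, with or without the block, and none had an unadjusted p below 0.05 without it. Over all genes 0.0% were called without the block; with it 0.0333% were for RP against total RNA, 1.97% for 4sU against total RNA and 0.0653% for RP against 4sU RNA, all from 0 to 4 h, and 0.0% for RP against 4sU RNA from 0 to 1 h. At 4 h the fitted RP change was above the 4sU change in 9 of 9 genes and above the total RNA change in 8 of 9, and these counts share the RP libraries. Over 12 alternatives they ran from 6 to 9 and from 6 to 8. The median difference of the 9 genes was 0.44 against 4sU RNA and 0.25 against total RNA. Over all genes it was 0.065 and 0.0037, and the share of all genes above 0 was not counted. Of the 36 differences (9 genes in 4 comparisons), 25 changed sign in at least 1 alternative, and none was called in any. For Rgs16 the RP change minus the total RNA change was 1.57 ± 0.76 SE, and minus the 4sU change 1.02 ± 0.78 SE (limma, adjusted p = 1 and 0.86). For Dusp2 the values were 0.64 ± 0.41 and 0.84 ± 0.45 SE (limma, adjusted p = 1 and 0.785). At 0 h total RNA of Rgs16 (0.75 and 1.14 FPKM) lay near the pseudocount of 1, which shrinks its total RNA change most. As plain FPKM ratios of 4 h to 0 h, Rgs16 stood at 70.2 in RP and 62.6 in total RNA in replicate 1. In replicate 2 these ratios were 62.8 and 22.2. At 1 h the 9 differences between RP and 4sU RNA ran from -0.43 to 0.19.

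At 0 h all 9 genes had a higher ratio of 4sU to total RNA than most genes. The ratio ran from 2.74 (Dusp4) to 3.57 (Rgs16) in replicate 1, where the median of all genes was 1.45, and from 2.90 (Rgs1) to 5.97 (Dusp5) in replicate 2, where it was 1.60. These are percentiles 91.6 to 98.5 and 85.0 to 99.4 of all genes. At 4 h the ratio ran from 1.85 (Rgs1) to 3.29 (Dusp5) in replicate 1 and from 2.72 (Rgs1) to 3.95 (Dusp5) in replicate 2. The label enriches new over old RNA and FPKM are relative, so the ratio ranks genes within a replicate and is not a rate.

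The ratio of RP to total RNA spread more widely. Dusp5 had the lowest, 1.504 and 1.44 at 0 h in replicates 1 and 2, and Rgs1 the highest, 9.43 and 7.52, where the medians of all genes were 2.57 and 2.85. At 4 h Dusp5 stood at 1.60 and 1.502 and Dusp10 at 1.55 and 1.92, and Rgs1 stood at 10.4 and 11.4. Rgs16 went from 7.17 and 3.26 at 0 h to 8.05 and 9.24 at 4 h, so its replicates stood apart at 0 h. Where depth could be read from the values, RP steps matched coding length and the others summed exon length, so this ratio also carries the share of untranslated sequence in a gene. In the gene models used here the summed exon length of Rgs1 was 6947 bases, equal to its whole span, and its coding length was 741 bases. The part of these lengths in its high ratio was not tested.

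**Figure D4:**
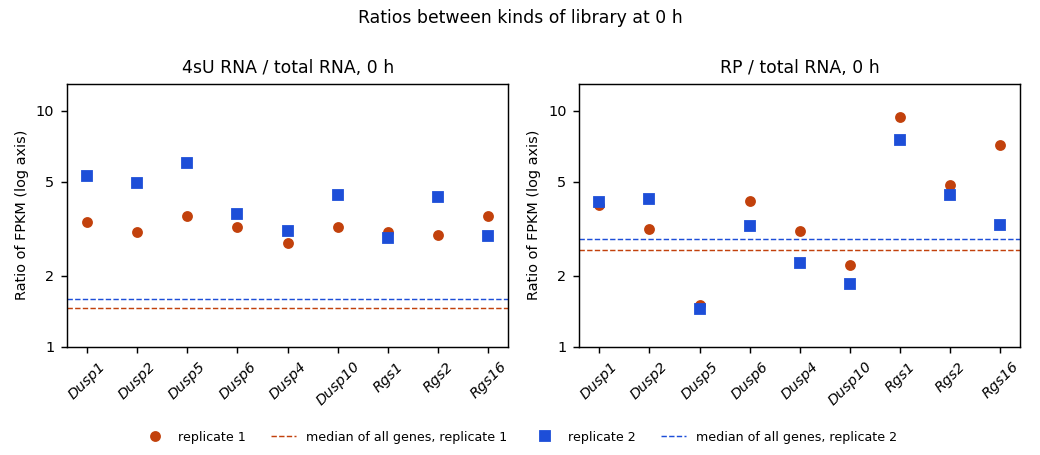
Ratio of FPKM between kinds of library at 0 h for the 9 genes (log axes), 4sU over total RNA on the left and RP over total RNA on the right; circles are replicate 1, squares replicate 2, and dashed lines the median of all genes in each replicate. All 18 points on the left lie above both lines, whereas on the right they run from below the lines (Dusp5) to far above (Rgs1).

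Profiles were compared over the 16 group means, centred within each kind of library. Those of Dusp1, Dusp2, Dusp5 and Dusp6 were more like one another than like those of Dusp4 and the RGS genes, and Dusp10 stood apart. Dusp1 and Dusp2 had the profiles most alike among the phosphatase genes (Pearson r = 0.967), and Rgs1 and Rgs16 among the RGS genes (0.982). Dusp4 was closer to Rgs1 (0.96) than to Dusp5 (0.83) or Dusp1 (0.67). Rgs2 lay closer to Rgs16 (0.94) than to Dusp5 (0.86), Dusp6 (0.82) or Dusp1 (0.65). Dusp10 had r between -0.26 and 0.02 with the 8 others. Of 3229 genes, the 3 most like Dusp1 were Dusp2, Ccrl2 and Etv3, and those most like Dusp2 were Ccrl2, Dusp1 and Tnf. For Dusp5 they were Map3k8, Il21 and Nfkbid, and for Dusp6 Zc3h12a, Nr4a1 and Egr3. For Dusp4 they were Pdp1, Icam1 and Jarid2, for Rgs1 Yrdc, Ptger4 and Rgs16, for Rgs2 Sema7a, Rgcc and Csrnp1, and for Rgs16 Cish, Myc and Yrdc. The highest r of each of these 8 genes was between 0.965 and 0.991, and that of Dusp10 was 0.795, with Nfe2l2. The points share libraries and replicates, and r here is a description. A group mean with 1 library holds 1 replicate only, so differences between replicates enter the profiles. At 0 h Dusp4 and Rgs1 stood higher in replicate 1, and Dusp5 and Dusp6 in replicate 2. The part of this in r was not tested.

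Few other members of the phosphatase family passed, and the other RGS genes called in the separate fits went down. Of 15 other dual-specificity phosphatase genes 9 were in the table. At 4 h 1 was called higher in 4sU RNA (Dusp12, 0.99 ± 0.29 SE) and none lower, where 14.4% and 18.9% of all genes were, with 2 higher and 2 lower under the block (23.3% and 35.4% of all genes). In RP 1 was called lower (Dusp28, -1.35 ± 0.32 SE) and none higher (12.9% and 12.1% of all genes), with 1 lower and 3 higher under the block (26.7% and 21.3%), and the median of the 9 was -0.01 in 4sU RNA. Of 16 other RGS genes 6 were in the table, and 3 of them fell in 4sU RNA at 4 h (18.9% of all genes did), among them Rgs3 (from 42.9 and 52.5 to 19.2 and 18.7 FPKM, -1.28 ± 0.18 SE) and Rgs12 (-1.07 ± 0.23 SE), with a median of -0.95. With the block 4 were lower and 1, Rgs19, was higher (0.39 ± 0.13 SE, limma adjusted p = 0.0355, 0.224 without the block). Rgs14 and Rgs12 fell in RP (-1.08 ± 0.17 and -1.10 ± 0.22 SE), where 12.9% of all genes did; with the block 4 of the 6 fell there (26.7%).

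Among the kinases that the phosphatases act on and the kinases above them, 20 of 26 genes in the table did not pass in 4sU RNA at 4 h. The calls were 2 higher and 4 lower, against 14.4% and 18.9% of all genes, and 3 and 9 with the block, against 23.3% and 35.4%, so that these shares lay near or below the background. The median was -0.17, against -0.16 over all genes. Map3k3 fell from 118 and 97.4 to 24.9 and 26.8 FPKM (-2.01 ± 0.18 SE), and Map2k6, a kinase of p38, fell by 1.96 on the log2 scale. Map2k3, another kinase of p38, was higher in total RNA at 4 h (1.59 ± 0.23 SE). Among 15 other inhibitors of Ras and ERK signalling, 3 passed upward and 2 downward (5 and 2 with the block), which is near or below the same background shares except for the 5. Spry1, a feedback inhibitor of ERK signalling, was higher (from 4.38 and 7.20 to 23.1 and 59.1 FPKM, 2.52 ± 0.44 SE). Rasa3, which switches off Ras and Rap, was lower (from 216 and 185 to 16.1 and 20.7 FPKM, -3.39 ± 0.22 SE). Of 16 immediate early genes known as ERK targets, 8 were called higher at 1 h (0.183% of all genes) and 10 at 4 h (14.4%) in 4sU RNA, and none lower. With the block 15 were higher at 1 h (5.21%) and 13 at 4 h (23.3%). Egr2 stood at 2.25 and 2.34 FPKM at 0 h, at 285 and 158 FPKM at 1 h and at 31.6 and 45.8 FPKM at 4 h.

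On the G protein side, 3 of 15 tested subunit genes fell in 4sU RNA at 4 h and none rose (6 and 0 with the block), a share of falls near that of all genes (18.9%, and 35.4% with the block). Among them were Gna15 (-2.08 ± 0.19 SE) and Gnb4 (-0.77 ± 0.18 SE). Of 24 G protein coupled receptor genes tested, 4 rose and 5 fell (6 and 9 once the block was fitted), shares near those of all genes (14.4% and 18.9%, and 23.3% and 35.4% with the block). S1pr1, the receptor that guides T cell exit from lymph nodes, fell from 185 and 258 to 3.02 and 7.35 FPKM (-5.24 ± 0.42 SE), and Cxcr3, a chemokine receptor of Th1 cells, from 59.7 and 38.5 to 3.30 and 5.49 FPKM (-3.21 ± 0.31 SE).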

How the data were processed

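The authors deposited FPKM with 2 decimals for 9420 genes in 24 libraries, which fall in 16 groups. Subread 1.4.6-p3 with featureCounts and the build GRCm38 are named in the submitters' processing notes. The sources used here do not give the aligner, annotation, gene length or strand setting. Gene symbols and coordinates came from GENCODE M21, in which 9412 identifiers matched.

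Changes were tested on log2(FPKM + 1) with limma 3.58.1 in R 4.3.3 (moderated statistics with a mean-dependent prior, Benjamini-Hochberg adjustment), each kind of library alone, over genes of at least 1 FPKM on average (9278 for 4sU, 9078 for total RNA, 9312 for RP). The residual degrees of freedom were 3, 2 and 3, and 2, 1 and 2 with the replicate block. In total RNA at 4 h the SE of Dusp12, Spry1 and Mapk11 was 0.33, 0.32 and 0.22 in the separate fit. With the block it was 0.22 for each. Differences between kinds were interaction terms in 1 model over both kinds. The step between low values gave depth in 11 libraries; in the others it is unknown. The fit was tested on simulated data.

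Deviations from group means correlated at over 0.1 in 28 of 28 pairs of replicated groups (0.307 to 0.790, median 0.599), so replicate numbers were taken to pair the libraries, from the data and not the labels. The genes and lists were chosen with earlier results of these data known. Genes named besides the 9 are, per list and comparison, the 2 called ones that changed most (1 uncalled gene if no call was made), and the 3 of most like profile. Not all are printed. Alternatives were another pseudocount, no filter, median-of-ratios scaling, 1 fit over 22 libraries, the replicate block and leaving out each library.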

Additional observations from a re-analysis of the deposited data

Results flagged for a closer look

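Dusp10 moved in opposite directions in the 2 replicate numbers between 0 and 4 h, in each of the 3 kinds of library. On the scale of log2(FPKM + 1), the difference was 0.59 in replicate 1 and -1.02 in replicate 2 in 4sU RNA, 0.84 and -0.58 in total RNA, and 0.37 and -0.55 in RP. There is 1 library on each side of each of these differences, and the difference between the replicates was not tested.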

How the results depend on the processing

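The number of the 9 genes called changed with the replicate block and with single libraries. With the block, the count went from 1 to 8 in 4sU RNA at 1 h, from 5 to 8 at 2 h, from 3 to 8 at 3 h, from 3 to 5 at 4 h and from 3 to 6 for 4 against 1 h. In total RNA it went from 0 to 5 at 1 h, from 5 to 8 at 2 h and from 5 to 8 at 4 h, and in RP from 1 to 7 at 1 h, from 5 to 8 at 2 h, from 5 to 8 at 4 h and from 1 to 6 for 4 against 1 h. The block changed no other call of a member. With the joint fit over 22 libraries, which has no block, the count was 5 in 4sU RNA at 1 h, and in RP 5 at 1 h, 8 at 2 h and 2 for 4 against 1 h. With median-of-ratios scaling it was 5 in 4sU RNA at 3 h and 0 in RP at 1 h, and with a pseudocount of 0.1 FPKM it was 0 in RP at 1 h.

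Leaving out 1 library, the count ran from 0 to 1 in 4sU RNA at 1 h, was 0 at 2 h and 1 at 3 h, and ran from 1 to 2 at 4 h and from 1 to 3 for 4 against 1 h. In total RNA it was 0 at 1 h and ran from 1 to 2 at 2 h and from 2 to 4 at 4 h. In RP it was 0 at 0.5 h, 0 to 2 at 1 h, 0 at 2 h, 2 to 5 at 4 h and 0 to 1 for 4 against 1 h. For the 4 differences between kinds it stayed at 0. The libraries that moved a count were those of 0 h (either replicate) for the single libraries at 2 and 3 h. In 4sU RNA they were also 1 h replicate 1 and both 0 h libraries (0 calls at 1 h), all 4 libraries at 4 h against 0 h (1 call without 4 h replicate 1, 2 calls otherwise), and for 4 against 1 h 4 h replicate 1 or 1 h replicate 2 (1 call) and 4 h replicate 2 (2 calls). In total RNA at 4 h they were either 4 h library or 0 h replicate 1 (2 calls each) and 0 h replicate 2 (4 calls), in RP at 1 h all 4 libraries (2 calls without 1 h replicate 2, 0 otherwise), in RP at 4 h 4 h replicate 1 (2 calls) and 4 h replicate 2 or 0 h replicate 1 (4 calls), and for RP 4 against 1 h either 4 h library or 1 h replicate 2 (0 calls). Of 37 calls of single members, 8 were kept in every such fit and 19 in none.

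Of the 36 differences between kinds of library, none of which was called, 25 changed sign in at least 1 alternative. The signs of changes within a kind turned only where they were not called in the separate fit. Among these, Dusp4 in total RNA at 1 h was called higher with the block. Leaving out 1 library, Dusp10 in 4sU RNA ran from -0.51 to 0.68 at 1 h, from -0.89 to 0.018 at 2 h, from -0.51 to 0.40 at 3 h, from -0.67 to 0.24 at 4 h and from -0.90 to 0.30 for 4 against 1 h, and at 3 h it was 0.18 with the block and 0.12 with scaling. Dusp10 in total RNA ran from -0.41 to 0.040 at 2 h and from -0.36 to 0.62 at 4 h, and in RP from -0.51 to 0.14 at 1 h, from -0.088 to 0.12 at 2 h, from -0.45 to 0.27 at 4 h and from -0.26 to 0.45 for 4 against 1 h. For 4 against 1 h in 4sU RNA, Rgs2 was 0.012 with scaling and ran from -0.37 to 0.15, and Dusp4 ran from -0.39 to 0.92. Dusp4 in total RNA at 1 h ran from -0.50 to 0.80, and Dusp6 in RP for 4 against 1 h from -0.84 to 0.075. The causes were not tested. Depth was unresolved in 13 libraries, so their counting error is unknown.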
